A study of Caenorhabditis elegans with 6 samples.

Results

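P granules are RNA-protein condensates that sit at the nuclear envelope of C. elegans germ cells and are handed down to the germ lineage of the embryo. PGL proteins form their scaffold, GLH proteins are Vasa-related RNA helicases that sit in it, DEPS-1 promotes its assembly, and the disordered MEG proteins act in the early embryo, where P granules dissolve on one side of the zygote and condense on the other. Mothers load much of the RNA for these proteins into the oocyte. The 10 genes described here were taken by name from the deposited table: pgl-1, pgl-3, glh-1, glh-2, glh-4, deps-1, meg-1, meg-2, meg-3 and meg-4. All 10 were found among the 25212 genes in the table. FPKM, the unit of the levels, counts sequenced fragments per length of transcript and per depth of the library. All 10 members averaged at least 1 FPKM over the libraries, the filter that 13790 genes passed.

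The libraries came from poly(A)-selected RNA of whole N2 animals, the standard laboratory strain. There were 3 libraries of animals given aspartame (ASP), a dipeptide sweetener used at 100 µM, and 3 of Control animals. The study asked about innate immunity against Pseudomonas aeruginosa. Exposure of these animals to that bacterium, their age and their stage are not stated in the labels. Each group has replicate numbers 1, 2 and 3. Separate cultures are not mentioned for the replicates, so the p-values rest on differences between libraries that could be technical in origin. In whole animals, fewer cells of a type and less RNA per cell cannot be told apart. Total counts were between 53558562 and 63581942 per library, and ribosomal RNA genes took 3.24% to 7.19% of them.

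The libraries numbered 3 stood apart in both groups. With each group's mean taken away, the ASP and Control libraries of one number deviated together, with Pearson's r of 0.769, 0.482 and 0.791 for numbers 1, 2 and 3 (across 13790 genes, which are not independent replicates). What a number stands for is not given in the labels. Markers set the libraries apart as well. The 12 oocyte and eggshell markers summed to 687 to 845 FPKM in number 3, against 1324 to 1774 FPKM in numbers 1 and 2. The 14 molting markers summed to 875 to 1013 FPKM in number 3, against 239 to 482 FPKM in numbers 1 and 2. The 18 markers of germ line mitosis and meiosis summed to values closer together, with 648 to 654 FPKM in number 3 and 711 to 802 FPKM in numbers 1 and 2. Markers of zygotic transcription in the early embryo were close to absent, with at most 1.25 FPKM summed over 7 genes in any library, and each of the 7 was listed at 0 in at least 1 library.

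The 10 genes lie on 4 chromosomes in the build WBcel235, with coordinates as the table gives them. The scaffold genes are pgl-1 (IV, 6974442 to 6977318, minus strand) and pgl-3 (V, 4755979 to 4758587, plus strand). The helicase genes glh-1 (6854478 to 6857536), glh-2 (6513928 to 6517507) and glh-4 (3727027 to 3731179) are on the plus strand of chromosome I, as is deps-1 (506473 to 509056). All 4 MEG genes are on chromosome X. meg-2 (13922643 to 13926129) and meg-1 (13927036 to 13929634) are neighbours on the minus strand with 906 bp between them, meg-3 (1986469 to 1989607) is on the minus strand and meg-4 (1682954 to 1686419) on the plus strand. All are protein-coding, and in the Ensembl annotation of the same build the transcripts of these genes have 6 to 12 exons. Only deps-1 overlaps another gene of the table. Y65B4BL.7 covers 109 bp of it on the other strand with 2.27 to 3.99 FPKM, and without a stated use of strand their shared reads cannot be told apart. GLH genes resemble each other in sequence, as do MEG genes, and no source used here states how reads that match several of them were counted.

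The levels, which FPKM puts on one scale per length, spanned from 168.4 FPKM for glh-1 to 2.17 FPKM for meg-2 (means over 6 libraries). pgl-1 followed glh-1 at 129.2 FPKM, then pgl-3 at 63.7, deps-1 at 47.6, glh-4 at 35.98, glh-2 at 34.1, meg-1 at 12.7, meg-3 at 4.80 and meg-4 at 3.19 FPKM. This order held in 6 of 6 libraries for every neighbouring pair except glh-4 and glh-2, where glh-4 was the higher in only 3 of 6. Among MEG genes the ranges over the libraries overlapped, although the order within each library did not change. In level, glh-1 stood above 95.5% of the genes tested and meg-2 above 11.5%.

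**Figure D1:**
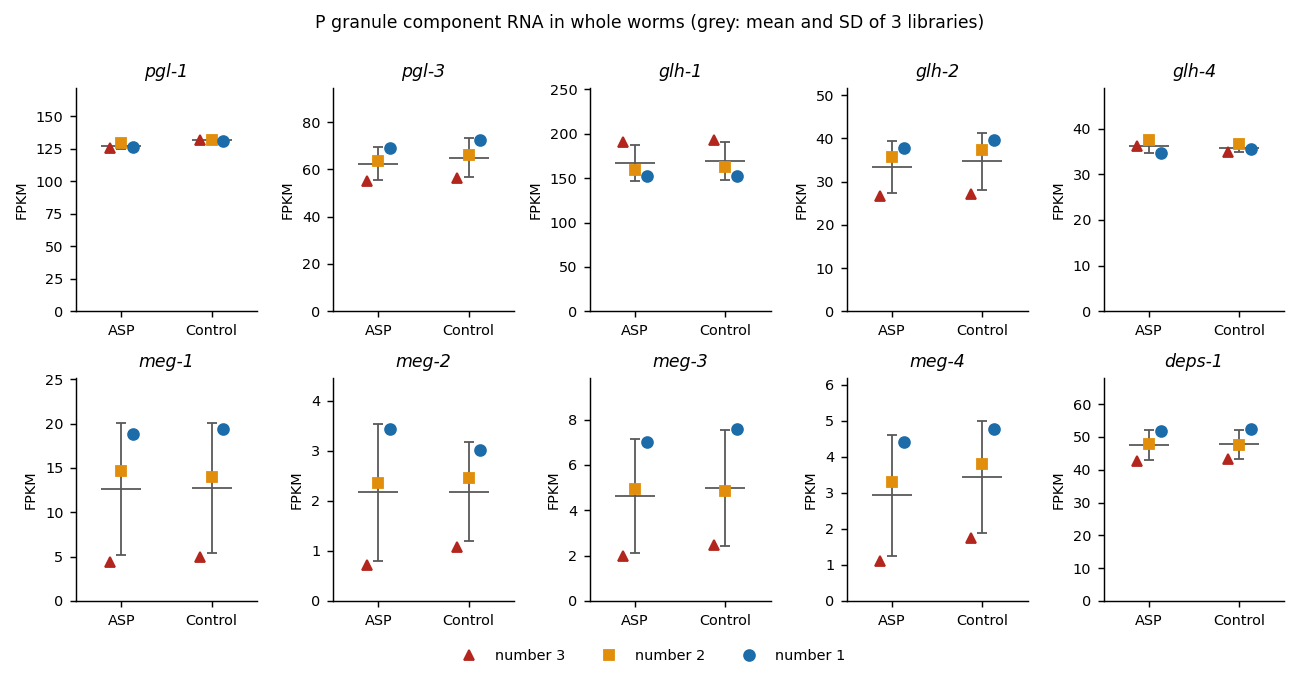
FPKM (y axes, linear from 0, one scale per panel) of each P granule gene in the 3 ASP and the 3 Control libraries, with symbols for the replicate number and grey bars for the mean ± SD of a group. The ASP and Control means lie close together in the panels, least so for meg-4 (2.94 and 3.44 FPKM). The 4 MEG genes are lowest in number 3 of either group, at 0.715 to 4.92 FPKM.

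The comparison of ASP with Control asks whether aspartame changed the RNA of P granule components. None of the 10 genes was called (edgeR quasi-likelihood test, Benjamini-Hochberg adjusted p under 0.05), and the background was 0.00%, with 0 of 13790 genes called. At an unadjusted p under 0.05 there were 0 of the 10 genes and 62 of all genes, and DESeq2 and limma on log2(FPKM + 1) also called 0, with 73 and 71 genes at that p. Without the block the differences between numbers count as error, which limits what this comparison can call. The median log2 difference (ASP minus Control) was −0.06 over the 10 genes and 0.00 over all genes tested.

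The scaffold gene pgl-1 had 126.5, 129.6 and 125.5 FPKM in ASP 1, 2 and 3, against 130.7, 131.3 and 131.9 FPKM in Control 1, 2 and 3. All 3 ASP libraries lay below all 3 Control libraries, which no other member showed, and 1.10% of the genes tested had such a split with ASP lower. The difference was small and was not called (log2 −0.07, 95% interval −0.29 to 0.15, edgeR adjusted p 0.9999). Its relative pgl-3 had 68.9, 63.5 and 54.9 FPKM in ASP 1, 2 and 3, against 72.6, 65.9 and 56.4 FPKM in Control 1, 2 and 3. It was lower in ASP than in Control in each of the 3 numbers, and the groups overlapped. How many of all genes were lower in ASP in each number was not counted, so nothing is read from that here or below.

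Among the helicases, glh-1 averaged 167.3 ± 20.1 FPKM in ASP and 169.5 ± 21.4 FPKM in Control (SD, n = 3 each). glh-2 averaged 33.4 ± 5.97 FPKM in ASP and 34.8 ± 6.62 FPKM in Control, and glh-4 averaged 36.2 ± 1.44 FPKM in ASP and 35.8 ± 0.912 FPKM in Control. deps-1, whose protein promotes P granule assembly, averaged 47.4 ± 4.60 FPKM in ASP and 47.7 ± 4.48 FPKM in Control. The groups overlapped for each of these 4 genes. The SD within a group includes the differences between numbers. Within numbers glh-2 was lower in ASP than in Control in each of the 3, with log2 ratios of −0.07, −0.06 and −0.03 for numbers 1, 2 and 3. The share of all genes that were so was not counted.

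The MEG genes had a wide spread within each group, and the means of the groups were nearly equal for meg-1 and meg-2. meg-1 averaged 12.7 ± 7.44 FPKM in ASP and 12.7 ± 7.30 FPKM in Control, and meg-2 averaged 2.17 ± 1.37 FPKM in ASP and 2.18 ± 0.995 FPKM in Control (SD, n = 3 each). meg-3 averaged 4.63 ± 2.51 FPKM in ASP and 4.97 ± 2.55 FPKM in Control, and meg-4 averaged 2.94 ± 1.68 FPKM in ASP and 3.44 ± 1.54 FPKM in Control. Their 95% intervals without the replicate block reached from −1.53 to 1.46 in log2. The replicate number as a block takes the differences between numbers out of the error. It called 0 of the 10 genes and 0 of all 13790 genes tested. It narrowed the intervals to between −0.23 and 0.15 for PGL, GLH and DEPS-1 genes and to between −0.70 and 0.29 for MEG genes. meg-4 was farthest from 0 in that fit (log2 −0.33, SE 0.16, 95% interval −0.70 to 0.04, adjusted p 0.9974 in edgeR). It was lower in ASP than in Control in each number, with log2 ratios of −0.11, −0.21 and −0.65 for numbers 1, 2 and 3. The share of all genes that were so was not counted. With both libraries numbered 3 left out, a setting added after the data were seen, the blocked log2 for meg-4 was −0.16 (SE 0.15). That setting called 0 of the 10 genes and 39 of all 13790, with 5 higher and 34 lower.

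**Figure D2:**
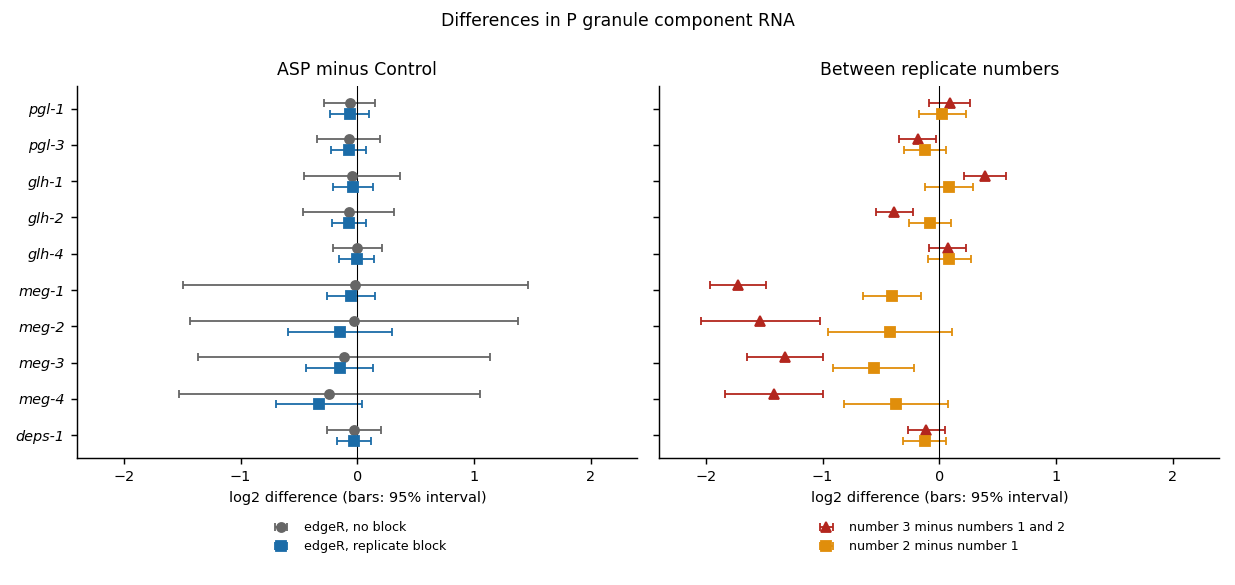
Log2 differences from edgeR (x axes) with 95% intervals for each gene (y axis). The left panel gives ASP minus Control without and with the replicate block, where every interval spans 0, and the right panel gives number 3 minus numbers 1 and 2, and number 2 minus number 1, where the intervals of the 4 MEG genes for number 3 end at −0.99 or lower.

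The replicate numbers give the comparison in which the members parted. In number 3, against the mean of numbers 1 and 2 with the treatment group as a covariate, 1 member rose (glh-1), 5 fell (meg-1, meg-2, meg-3, meg-4 and glh-2) and 4 were not called (edgeR, adjusted p under 0.05). Over all genes, 38% were called in either direction, 19% higher and 19% lower, so a call by itself sets no member apart. The 4 MEG genes fell, with log2 differences of −1.73 to −1.33. The median was −0.28 over the 10 members and −0.01 over all genes tested.

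meg-1, the most abundant of the MEG genes, had 4.41 FPKM in ASP 3 and 4.92 FPKM in Control 3. The libraries numbered 2 had 14.7 FPKM in ASP and 13.95 FPKM in Control, and those numbered 1 had 18.9 FPKM in ASP and 19.4 FPKM in Control. The 2 libraries of number 3 thus lay far below the other 4, and those numbered 2 lay below those numbered 1. The fall in number 3 was log2 −1.73 (SE 0.10, edgeR adjusted p 1.288e-05), or 3.31-fold.

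meg-2, its neighbour on chromosome X and a partner in germ cell development, had 0.715 FPKM in ASP 3 and 1.08 FPKM in Control 3, against 2.35 to 3.43 FPKM in the libraries numbered 1 and 2 (log2 −1.53, SE 0.22, edgeR adjusted p 0.001114). meg-3, whose protein coats PGL droplets and drives their segregation in the zygote, had 1.99 FPKM in ASP 3 and 2.47 FPKM in Control 3, against 4.87 to 7.58 FPKM in numbers 1 and 2 (log2 −1.33, SE 0.14, edgeR adjusted p 0.0002246). Its paralog meg-4 had 1.11 FPKM in ASP 3 and 1.75 FPKM in Control 3, against 3.29 to 4.77 FPKM in numbers 1 and 2 (log2 −1.41, SE 0.18, edgeR adjusted p 0.0006261). For none of these genes did number 3 overlap the other numbers, which in either direction also held for 55.4% of all genes tested.

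All 4 MEG genes were lower in ASP 3 than in Control 3. ASP 3 kept 24.7% to 33.4% of the mean of ASP 1 and 2, and Control 3 kept 29.5% to 40.8% of the mean of Control 1 and 2. Each of these values rests on 1 library numbered 3, so the difference between the groups in this fall has no replicate check. A fit added after the data were seen took its spread from numbers 1 and 2, which differ from each other. It gave wide intervals (for meg-2 log2 −0.74, 95% interval −1.89 to 0.41), and nothing is read from its lack of calls. The oocyte and eggshell markers were lower in ASP 3 as well, at 687 FPKM against 845 FPKM in Control 3, and the part of oocyte content in the result was not tested.

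Among the helicases the paralogs moved apart. glh-1 rose in number 3, with 190.2 FPKM in ASP 3 and 193.4 FPKM in Control 3, against 152.2 to 163.1 FPKM in numbers 1 and 2 (log2 0.39, SE 0.08, edgeR adjusted p 0.005228). glh-2 fell, with 26.6 FPKM in ASP 3 and 27.3 FPKM in Control 3, against 35.8 to 39.7 FPKM in numbers 1 and 2 (log2 −0.38, SE 0.07, edgeR adjusted p 0.003057). Within a library, glh-1 exceeded glh-2 by 7.15-fold in ASP 3 and 7.10-fold in Control 3, and by 3.83-fold to 4.44-fold in the other 4. Each kept its direction and its call under every scaling, filter and left-out library tried. glh-4 had 36.2 FPKM in ASP 3 and 34.9 FPKM in Control 3, against 34.7 to 37.6 FPKM in numbers 1 and 2, and was not called.

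pgl-1 had 125.5 FPKM in ASP 3 and 131.9 FPKM in Control 3, against 126.5 to 131.3 FPKM in numbers 1 and 2, and was the flattest member over the 6 libraries. Its log2 difference of 0.09 (95% interval −0.09 to 0.26) was not called and was below 0 in limma on FPKM (−0.01). pgl-3 was at log2 −0.18 (95% interval −0.34 to −0.03, edgeR adjusted p 0.06573), with 54.9 FPKM in ASP 3 and 56.4 FPKM in Control 3, against 63.5 to 72.6 FPKM in numbers 1 and 2. It was called lower in limma on log2(FPKM + 1) (log2 −0.28, adjusted p 0.0164). deps-1 was at log2 −0.11 (95% interval −0.27 to 0.05), with 42.7 FPKM in ASP 3 and 43.4 FPKM in Control 3, against 47.4 to 52.3 FPKM in numbers 1 and 2. In FPKM, number 3 did not overlap the other numbers for 8 of the 10 members, against 55.4% of all genes tested.

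The intervals of the MEG genes did not meet those of the other members. The highest upper bound of a MEG gene was −0.99 in log2, and the lowest lower bound among PGL, GLH and DEPS-1 genes was −0.54. MEG genes made up 1.70% of the summed FPKM of the 10 members in ASP 3 and 2.05% in Control 3, against 5.07% in ASP 2, 4.95% in Control 2, 6.66% in ASP 1 and 6.70% in Control 1. The sum over all 10 moved little, at 484 FPKM in ASP 3 and 498 FPKM in Control 3, against 498 to 518 FPKM in numbers 1 and 2.

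Setting the library sizes by the summed counts of the 18 markers of germ line mitosis and meiosis was a scaling added after the data were seen. It asks how the members moved relative to that sum, in which abundant markers weigh most. gld-1 had the highest FPKM of the 18, at 218 to 320 FPKM, and stood at log2 −0.27 without this scaling. Also without it, 6 of the 18 markers stood above 0 and 12 below (median −0.10). With the scaling, MEG genes still fell, with log2 differences of −1.58 to −1.18, and glh-2 fell (log2 −0.24). glh-1 (0.54), pgl-1 (0.24) and glh-4 (0.22) were then called higher, which made 3 members higher and 5 lower, while pgl-3 (−0.04) and deps-1 (0.04) were not called. Under this scaling 40.7% of all genes were called, 29.8% higher and 10.9% lower, and the median of all genes was 0.14.

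In number 2 against number 1 the MEG genes again had the lowest values, with smaller differences. None of the 10 members was called (background 3.84%, 530 of 13790 genes in edgeR, with 2.70% higher and 1.14% lower). At an unadjusted p under 0.05 there were 2 of the 10 members and 2478 of all 13790 genes. DESeq2 called meg-3, as 1 of 875 genes called in all. meg-3 was at log2 −0.56 (SE 0.15, edgeR adjusted p 0.0874), and meg-1 was at −0.41 (SE 0.11, edgeR adjusted p 0.08562). meg-2 was at −0.42 (SE 0.23) and meg-4 at −0.37 (SE 0.19). The other 6 members lay between −0.13 and 0.08. meg-1 and meg-3 were called when ASP 3 or Control 3 was left out of the fit, where 1546 and 1511 of all genes were called.

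**Figure D3:**
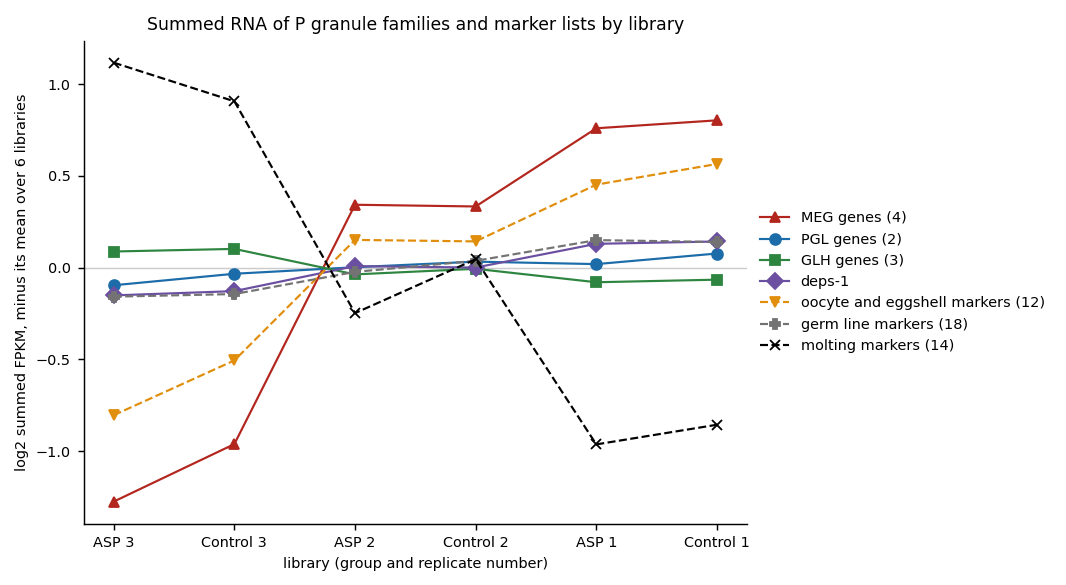
Log2 of the summed FPKM of each P granule family and of 3 marker lists, minus its mean over the 6 libraries (y axis), in each library by group and replicate number (x axis). In either group MEG genes, PGL genes, deps-1, the oocyte and eggshell markers and the germ line markers are lowest in number 3 and highest in number 1. Molting markers and GLH genes run the other way. PGL, GLH and deps-1 stay close to 0.

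Other genes of the pathway were read from lists chosen with earlier results of these data known. In ASP against Control, 0 of the 160 genes tested in 14 lists were called, and the list medians ran from −0.11 to 0.07 in log2. In number 3 against numbers 1 and 2, most genes tested fell in 4 of the lists, those for P granule segregation, oocytes, autophagy and synMuv B repressors. Each count of members of a list is to be read against the 19% of all genes called lower and the 19% called higher.

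Of 12 factors that segregate P granules or act in the germ lineage of the embryo, 9 fell and 0 rose (median −0.72). nos-2, a Nanos relative needed in primordial germ cells, had 5.77 FPKM in ASP 3 and 6.08 FPKM in Control 3, against 12.7 to 23.6 FPKM in numbers 1 and 2 (log2 −1.46, SE 0.11). The maternal zinc-finger gene pos-1 had 57.2 FPKM in ASP 3 and 64.8 FPKM in Control 3, against 116.8 to 172.3 FPKM in numbers 1 and 2 (log2 −1.11, SE 0.08). spn-4 (log2 −0.87), an RNA-binding protein gene, and mex-6 (log2 −0.78), whose protein helps to set the zygote's P granule gradient, also fell. Of the 12 oocyte and eggshell markers 12 fell (median −0.998), among them the oocyte maturation gene oma-2 (log2 −1.11) and the eggshell chitin synthase gene chs-1 (log2 −1.09).

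For other constituents of P granules the median lay closer to 0. Of 16 tested, 4 fell and 1 rose (median −0.13). The gene that rose, named after its values were seen, was the Argonaute gene prg-1 (log2 0.31), whose protein binds piRNAs. The poly(A) polymerase partner gene gld-3 fell (log2 −0.46), as did gls-1 (log2 −0.34), mip-2 (log2 −0.44) and the helicase gene cgh-1 (log2 −0.42). Of 17 genes of adjoining germ granules 5 fell and 0 rose (median −0.09), with lotr-1 at log2 −0.50 and elli-1 at log2 −0.38. Of the 18 germ line markers 4 fell and 0 rose (median −0.10), among them the Notch receptor gene glp-1 (log2 −0.43). The shares that fell among other constituents and germ line markers lie near that of all genes.

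In the soma, PGL proteins are removed by autophagy and germ line genes are kept silent by synMuv B repressors. Of 14 autophagy genes tested 8 fell and 1 rose (median −0.29). Also on that list, sepa-1 had at most 0.153 FPKM in any library and was not tested. The gene that rose was epg-2, a scaffold for the removal of PGL granules (log2 0.65, SE 0.15). Of 16 synMuv B genes 9 fell and 0 rose (median −0.22), with the Rb-related gene lin-35 at log2 −0.42. Of 5 germ line chromatin factors 2 fell (median −0.18), mes-3 (log2 −0.29) and mes-6 (log2 −0.31).

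Markers of other cell types had medians on both sides of 0. Of 10 sperm markers 5 rose and 0 fell (median 0.30), of 14 molting markers 13 rose and 1 fell (mlt-7, named after its values were seen; median 1.80), of 6 somatic gonad markers 2 rose (median 0.22), of 6 body wall muscle markers 2 rose (median 0.25), of 6 intestine markers 2 fell (median −0.20), and of 8 neuron markers none was called (median 0.05). The part of these shifts in the members' values was not tested.

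**Figure D4:**
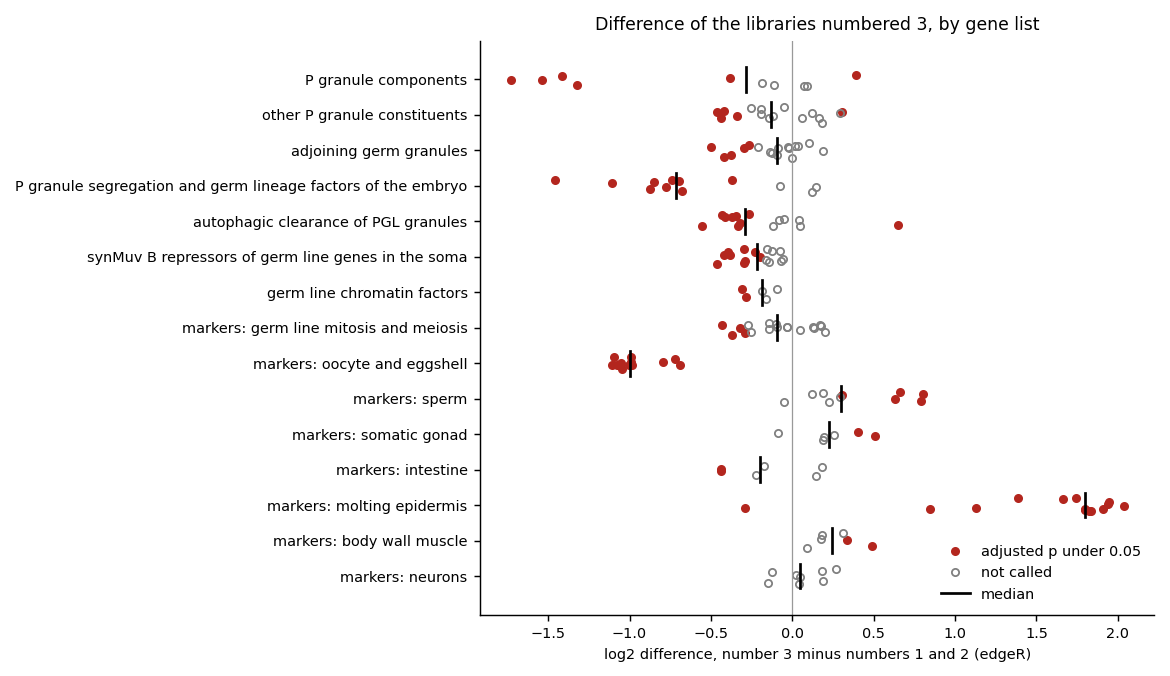
Log2 difference of number 3 minus numbers 1 and 2 from edgeR (x axis) for each tested gene of the P granule set and of 14 gene lists (rows), with filled points for adjusted p under 0.05 and black bars for list medians. The 4 MEG genes lie at −1.33 or lower, below all oocyte markers (−1.11 to −0.69, median −0.998). The segregation factors run from −1.46 to 0.15 (median −0.72), and the other P granule genes lie between −0.38 and 0.39.

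All 4 MEG genes lie on chromosome X. Of 1887 X-linked genes tested in number 3 against numbers 1 and 2, 14.6% were called lower and 26.4% higher (median log2 0.11). On the autosomes 18.5% to 22.2% were called lower and 16.6% to 19.8% higher.

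The genes most like the members were ranked by the root mean square difference between their deviations and the mean deviation of the 10 members, on the log2(FPKM + 1) scale over the 6 libraries. Among 7840 protein-coding genes that averaged 10 FPKM or more, the first 5 were C39E9.8, cgh-1, lotr-1, asd-1 and mip-2, with differences of 0.022 to 0.030. That mean mixes flat members with the MEG genes. Against the mean of the 4 MEG genes alone, a profile chosen after its values were seen, the first 5 were T27D12.1, K10H10.4, T24D1.3, gln-5 and F14D7.2, with differences of 0.038 to 0.055. meg-2, meg-3 and meg-4 averaged 2.17 to 4.80 FPKM, where adding 1 shrinks a fall more than at 10 FPKM. Genes alike on this scale can therefore fall less in FPKM than the MEG genes. T27D12.1 had 9.14 FPKM in ASP 3 and 10.9 FPKM in Control 3, 21.95 FPKM in ASP 2 and 23.1 FPKM in Control 2, and 28.6 FPKM in ASP 1 and 29.5 FPKM in Control 1.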

How the data were processed

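The authors deposited 1 table that holds, per the file headers, the FPKM and the count of every gene in every library. FPKM is scaled by the authors to transcript length and depth. The deposited counts are whole numbers and were treated as estimated counts, so rounding changed nothing. No aligner, counting tool or strand setting is named in the sources used here. CASAVA 1.4 and the builds mm9 and mm10, both of mouse, stand in the submitters' processing notes, whereas the table's chromosomes are those of C. elegans WBcel235. Of its gene IDs, 25206 were found in the RefSeq table of that build, with the same start for 97.1%.

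Genes averaging 1 FPKM or more were tested with edgeR 4.0.16 (TMM, quasi-likelihood, R 4.3.3) on the counts, adjusted over all of them at a threshold of 0.05. ASP was compared with Control without a block. Replicate numbers were compared in a fit with number and group. The edgeR fits of ASP against Control without a block and of the replicate numbers were tested on simulated data. There the comparison of ASP with Control recovered fewer of the changed genes than the comparisons of numbers. The replicate block and the alternatives had no such test. Alternatives used DESeq2 1.42.0, limma 3.58.1 on log2(FPKM + 1) or log2(FPKM + 0.1), other scalings and filters, and libraries left out. The replicate block, an alternative to the main fit, reads the numbers as pairing the libraries. Same-numbered libraries deviated together (0.769, 0.482 and 0.791), which the main fit of ASP against Control does not take into account.

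Members, lists and contrasts were chosen with earlier results of these data known. All 10 members are named, and from a list up to 4 genes with the smallest p. Of 172 list entries 4 were not used here, as no gene of the table carries their name. The autophagy gene sepa-1 and the 7 markers of zygotic transcription did not pass the filter and were not tested.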

Additional observations from a re-analysis of the deposited data

How the results depend on the processing

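In ASP against Control the count of members called was 0 under every alternative run, with and without the replicate block. Over all genes it was 0 throughout, save for 39 with the replicate block and both libraries numbered 3 left out. The signs of the members' small differences were not firm. glh-4 stood at 0.016 in limma on log2(FPKM + 1), with and without the block, and on log2(FPKM + 0.1), 0.0034 with a mean of at least 5 FPKM and 0.0028 with upper quartile scaling. With germ line marker scaling glh-1 stood at 0.0071, glh-4 at 0.047, meg-1 at 0.0066 and deps-1 at 0.015. Without both libraries numbered 3, glh-4 stood at 0.0023 (0.00020 with the block), meg-1 at 0.0081 (0.019) and meg-2 at 0.078 (0.067). With libraries left out, the log2 ranges were −0.17 to 0.11 for glh-1, −0.19 to 0.051 for glh-2, −0.033 to 0.044 for glh-4, −0.40 to 0.41 for meg-1, −0.50 to 0.38 for meg-2, −0.52 to 0.31 for meg-3, −0.63 to 0.14 for meg-4 and −0.078 to 0.026 for deps-1. Those fits had no block, so differences between numbers entered them.

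In number 3 against numbers 1 and 2, 6 members were called with each library left out, 7 in limma on FPKM and 8 with germ line marker scaling. With a mean of at least 5 FPKM it was 3, since meg-2, meg-3 and meg-4 do not pass that filter. Without a filter 3072 genes were called in all, and with a library left out 3879 to 4811. limma on log2(FPKM + 1) called 1864 genes higher and 3469 lower, and with the smaller pseudocount the median of all genes was −0.11. There pgl-1 stood at −0.0091 with either pseudocount, and glh-4 at −0.023 and −0.024. deps-1 stood at 0.036 with germ line marker scaling, where 4111 genes were called higher and 1501 lower.

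In number 2 against number 1, the count of members called was 1 in DESeq2 and 0 to 2 with a library left out. Over all genes it was 875 in DESeq2, 297 and 304 in limma with the larger and the smaller pseudocount, 9 without a filter and 78 to 1546 with a library left out (78 without Control 2, 195 without ASP 2, 1546 without ASP 3, 1511 without Control 3). With germ line marker scaling, pgl-3 stood at 0.0089, glh-2 at 0.050 and deps-1 at 0.0059, 691 genes were called higher and 90 lower, and the median of all genes was 0.13. pgl-1 ran from −0.024 to 0.085 with a library left out. The causes of these shifts were not tested. Number contrasts rest on 2 libraries per number, and low counts limit meg-2 most, with 133 to 629 counts.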
